A study of Mus musculus with 36 samples.

Results

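Broad promoter regions that serve genes on a single DNA strand were examined in mouse pre-B cells by DNase-seq, an assay that sequences fragments released where the enzyme DNase I cuts open chromatin. A DNase hypersensitive site (DHS) entered the set when it was at least 450 bp wide, lay within 1000 bp of a protein-coding transcription start site (TSS) of the GENCODE vM21 basic annotation (mm10), and had all protein-coding TSS in that window on one strand. The rule used width, position and annotation and no measured level, although the widths come from peaks called on these libraries. It gave 7791 of the 52788 DHS in the table (14.8%), here called the member DHS. Their nearest genes numbered 7311, and 933 members shared their nearest gene with another member.

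The cells were B3, a mouse pre-B cell line, in 2 transduced forms that were both sorted for green fluorescent protein. The Ikaros line carried an MSCV retrovirus with HA-Ikaros-ERt2-IRES-GFP, in which the transcription factor Ikaros is fused to a hormone-binding domain that enters the nucleus with 4-hydroxytamoxifen, and the control line carried ERt2-IRES-GFP without Ikaros. Each line was sampled at 0, 2, 6, 12, 18 and 24 h, which gave 12 groups of 3 replicates (36 libraries), numbered 4, 5 and 6 and assigned in the labels to batches 11, 12 and 13. The drug was used at 0.5 µM. It is listed in the labels for every sample, whereas in the methods the cells of 0 h had no drug and were obtained separately. The labels give the 0 h libraries the same batch numbers as the other times. The viral promoter drives the transgene. Whether a line is 1 clone is not given in the sources used here, so p-values measure the spread between these cultures of 1 line each.

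Values are log2 of normalised read density per DHS after the authors' noise correction, so a difference of 1 is a doubling. The deposited values do not hold the depth of each library, for which the methods state a minimum alone. The deposited correction reduced the 12 group means to 6 of the 11 dimensions they could span, so the values of different groups are not fully independent. Library medians over all DHS lay between 3.90 and 4.11. As a check of the label, 9 of 12 B lineage genes had a promoter DHS, among them Cd79a, Cd79b, Pax5, Ebf1 and Igll1, against 2 of 8 T lineage, 1 of 7 myeloid, 1 of 5 erythroid, 1 of 4 muscle and 1 of 4 fibroblast genes. In a bulk sample, fewer cells with an open site and fewer cuts per cell cannot be told apart.

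A promoter is the stretch around a TSS where general factors and RNA polymerase II assemble, and it is kept free of nucleosomes in genes that are active or poised. In mammals most promoters of widely used genes lie in CpG islands, which are rich in C and G and hold CG dinucleotides near the number chance would give, while promoters of tissue-restricted genes are often poor in CG. Where 2 genes start back to back the open region serves both strands, and a one-directional promoter serves a gene or genes on one strand. Ikaros is a zinc-finger protein that binds sites with the core TGGGAA, recruits the NuRD complex, and in pre-B cells is known for ending proliferation and lowering genes of growth and metabolism.

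Sequence directly upstream of the TSS (200 bases, read in the direction of the gene) is shown for members at both ends of the 24 h comparison. It came from GRCm38, the assembly also called mm10. Base composition comes up again in the data below. Capitals mark matches on either strand to any of 11 short motifs that were searched: the core of Ikaros sites and of Rbpj sites, TGGGAA, the core of Ets sites, CCGGAAG, the box of the Sp and Klf families, GGGCGG, the NF-Y box, CCAAT, part of the Nrf1 site, TGCGCA, the Creb and Atf site, TGACGTCA, the E-box that Myc and Usf proteins bind, CACGTG, the core of Yy1 sites, AAGATGG, the TATA box, TATAAA, the site of E2f proteins, GGCGGGA, and part of the Zfp143 and Thap11 site, ACTACAA. The Sp and Klf box and the E2f site can overlap. Members lower in Ikaros cells at 24 h begin with Zfp609 (a zinc-finger protein), Fads2 (a fatty acid desaturase) and Uhrf1 (a factor that maintains DNA methylation).
Zfp609, chr9:65827565-65827764, minus strand: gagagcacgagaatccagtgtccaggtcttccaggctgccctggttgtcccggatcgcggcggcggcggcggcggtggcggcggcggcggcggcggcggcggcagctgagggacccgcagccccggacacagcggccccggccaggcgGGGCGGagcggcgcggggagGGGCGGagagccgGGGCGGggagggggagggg
Fads2, chr19:10101747-10101946, minus strand: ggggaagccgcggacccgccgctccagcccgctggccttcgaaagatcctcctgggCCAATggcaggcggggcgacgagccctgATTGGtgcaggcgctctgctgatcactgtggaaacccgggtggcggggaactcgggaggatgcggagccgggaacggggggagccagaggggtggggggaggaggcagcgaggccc
Uhrf1, chr17:56303121-56303320, plus strand: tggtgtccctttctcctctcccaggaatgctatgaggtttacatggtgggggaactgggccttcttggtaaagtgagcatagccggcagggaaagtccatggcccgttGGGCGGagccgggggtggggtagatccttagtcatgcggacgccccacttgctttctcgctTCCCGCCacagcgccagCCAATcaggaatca

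The Zfp609 stretch held 3 matches to GGGCGG, which 59.2% of all members had in the same 200 bases. The Fads2 stretch held 2 CCAAT boxes (33.6% of members), and that of Uhrf1 had 1 match each to the Sp and Klf box, the E2f site (17.6%) and the NF-Y box. Members higher in Ikaros cells at 24 h begin with Cd36 (a fatty acid transporter and scavenger receptor), followed by Satb1 and by Klrd1 and Klra5, lectin-like receptors of natural killer cells. Upstream sequence is shown for those whose DHS covers it.
Cd36, chr5:17835718-17835917, minus strand: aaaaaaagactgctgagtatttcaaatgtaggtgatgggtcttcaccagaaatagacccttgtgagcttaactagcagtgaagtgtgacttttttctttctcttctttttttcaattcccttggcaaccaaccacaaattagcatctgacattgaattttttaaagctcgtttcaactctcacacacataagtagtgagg
Klrd1, chr6:129591582-129591781, plus strand: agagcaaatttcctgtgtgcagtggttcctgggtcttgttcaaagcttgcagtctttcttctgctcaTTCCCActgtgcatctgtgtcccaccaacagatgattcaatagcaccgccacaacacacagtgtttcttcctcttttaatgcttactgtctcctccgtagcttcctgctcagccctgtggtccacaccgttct
Klra5, chr6:129917651-129917850, minus strand: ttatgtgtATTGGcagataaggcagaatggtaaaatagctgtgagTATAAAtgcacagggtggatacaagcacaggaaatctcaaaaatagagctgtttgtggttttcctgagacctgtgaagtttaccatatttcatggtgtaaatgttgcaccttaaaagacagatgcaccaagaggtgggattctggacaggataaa

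These 3 DHS were poor in CG: the observed over expected ratio of CG dinucleotides in the central 300 bp of the DHS (the CpG ratio) was 0.089 at Cd36, 0.197 at Klrd1 and 0 at Klra5, against a median of 0.804 over all members. Klrd1 had 1 match to TGGGAA (16.3% of members), Klra5 matched TATAAA (4.08%) and CCAAT, and Cd36 matched none of the 11 motifs. The members with the highest mean level at a gene of known function, Stk11 (the kinase Lkb1), Stt3a (a subunit of oligosaccharyltransferase) and Khsrp (an RNA-binding protein), are shown for comparison.
Stk11, chr10:80115603-80115802, plus strand: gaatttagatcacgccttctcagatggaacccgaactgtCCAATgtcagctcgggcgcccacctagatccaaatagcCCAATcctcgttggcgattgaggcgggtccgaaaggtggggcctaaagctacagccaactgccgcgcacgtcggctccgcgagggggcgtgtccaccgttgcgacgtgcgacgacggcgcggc
Stt3a, chr9:36767680-36767879, minus strand: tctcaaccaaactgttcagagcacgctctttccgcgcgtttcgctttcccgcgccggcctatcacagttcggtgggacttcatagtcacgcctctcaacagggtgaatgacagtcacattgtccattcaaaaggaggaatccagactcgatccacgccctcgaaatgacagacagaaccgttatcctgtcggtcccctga
Khsrp, chr17:57031523-57031722, minus strand: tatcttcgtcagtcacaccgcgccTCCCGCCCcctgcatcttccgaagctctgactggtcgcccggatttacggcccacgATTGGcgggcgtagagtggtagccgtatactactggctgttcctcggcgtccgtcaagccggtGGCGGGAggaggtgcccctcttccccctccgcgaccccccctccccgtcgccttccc

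Stk11 held 2 NF-Y boxes, Khsrp held an NF-Y box, an Sp and Klf box and 2 E2f sites, and Stt3a none of the 11. A match is a description of the letters and not a bound site.

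Member DHS were centred just upstream of the TSS. The distance from TSS to centre, negative upstream, had a median of -43 bp (interquartile range -109 to 1 bp). The centre lay upstream in 74.5% and within 200 bp of the TSS in 79.4%, and the TSS fell inside the DHS in 85.8%. Per the methods the authors called narrow peaks, then peaks restricted to a size of 500 bp, and merged both sets. The width of a DHS therefore depends in part on the settings of the peak calling. The median width was 542 bp (interquartile range 516 to 603 bp), 834 members (10.7%) were exactly 500 bp wide, and 179 exceeded 1000 bp. The widest were those of Crlf2 (a cytokine receptor, 1671 bp), Kmt2c (a histone methyltransferase, 1484 bp) and Polr2a (the largest subunit of RNA polymerase II, 1430 bp). Just inside the width rule lay Zfp988 (460 bp), Eri1 (462 bp) and Psmb1 (471 bp), with mean levels of 3.17, 4.33 and 4.57, and just outside it Tifa (448 bp), Ssbp4 (445 bp) and Hipk3 (440 bp), with 3.92, 4.41 and 3.96. One annotated protein-coding TSS was in reach of 4095 members and more than 1 of 3696, with at most 14. The window held TSS of 2 or more genes in 72 members, and a TSS of another biotype, such as a long noncoding RNA, on the other strand in 1125.

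In sequence the members resembled broad promoters that serve both strands and stood apart from narrow ones, as a description without a test. The median CpG ratio was 0.804 for members, 0.861 for 993 broad DHS with protein-coding TSS on both strands, 0.547 for 2611 promoter DHS under 450 bp with TSS on one strand, and 0.263 over all DHS. GGGCGG was found in the central 300 bp of 67.0% of members, 69.1% of broad both-strand DHS, 43.4% of narrow ones and 20.2% of all DHS. The Ets motif CCGGAAG was in 21.7% of members but in 32.5% of both-strand DHS, the largest gap between these classes among the 11 motifs, and in 6.31% of all DHS. TATAAA ran the other way, with 4.33% of members, 7.58% of narrow promoter DHS and 13.3% of all DHS. The Ikaros core TGGGAA was about as frequent everywhere, with 21.6% of members, 21.3% of both-strand, 20.6% of narrow and 24.7% of all DHS.

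The mean level over the 36 libraries had a median of 4.76 in members, with the 5th percentile at 3.55 and the 95th at 5.82, against 5.14 in broad both-strand DHS, 4.24 in narrow ones and 3.95 over all DHS. Wider members had higher levels, with a median of 3.99 in the narrowest quintile (460 to 513 bp) and 4.93 in the widest (623 to 1671 bp), and members with the lowest CpG ratios (up to 0.584) had a median of 4.27 against 4.82 to 4.91 in the other quintiles. At the top, 2 members beside the predicted gene Gm21738 reached 11.65 and 11.03, far above the next, Stk11 with 7.16 (libraries from 6.72 to 7.84), Stt3a with 7.08 (6.58 to 7.47) and Khsrp with 6.82 (6.30 to 7.58). Of 5 windows of 36 bases in the first Gm21738 member, the most repeated occurs 49 times in the assembly, so reads there can come from other copies. The 5 windows tested in the second Gm21738 member occur once, as do those in Stk11, Stt3a and Khsrp. Bases outside these windows and copies with mismatches were not tested, so the second Gm21738 member is not shown to be unique. The lowest members were Mid1 (1.98, libraries 1.05 to 2.90) and Col4a6 (2.28, 1.44 to 3.58) on the X chromosome and Slc28a2 (2.19, 0.86 to 3.27).

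**Figure D1:**
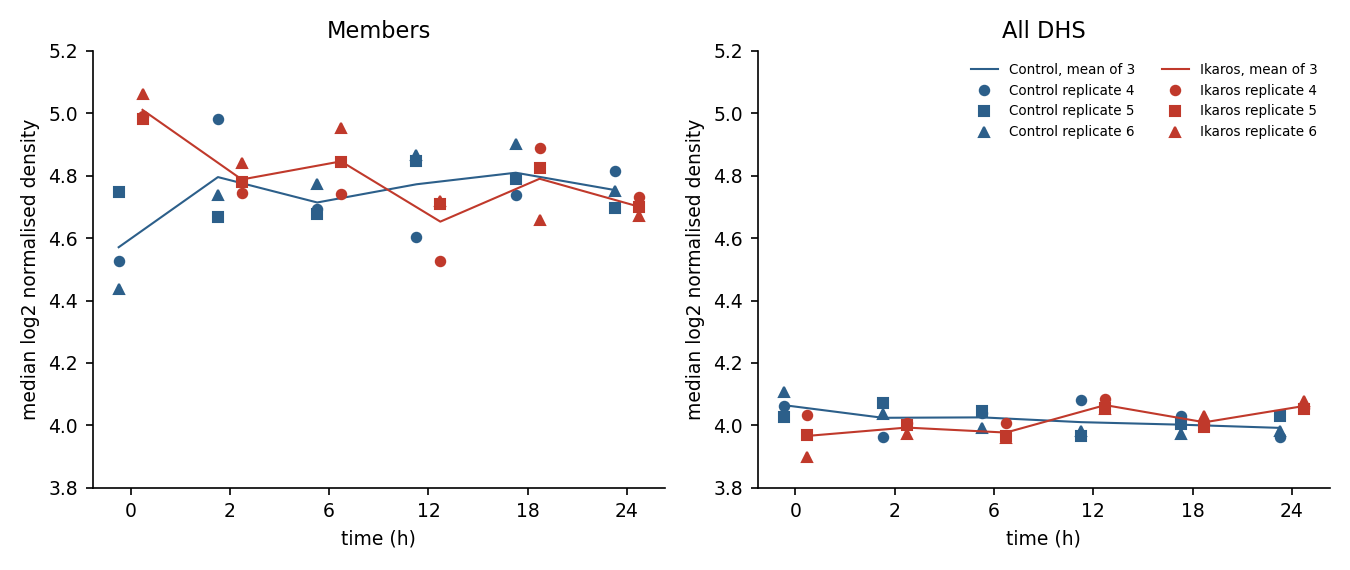
Median log2 normalised density over the 7791 member DHS (left) and over all 52788 DHS (right) in each library against time in hours, with symbols for replicates and lines through the group means. The 3 Ikaros libraries of 0 h lie between 4.98 and 5.06 and the 3 control libraries of 0 h between 4.44 and 4.75, while from 2 h on the lines overlap.

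At 0 h, before the drug per the methods, member DHS stood higher in the Ikaros line. The median of the members was 4.99, 4.98 and 5.06 in Ikaros replicates 4, 5 and 6 and 4.53, 4.75 and 4.44 in the control replicates, so the libraries of the lines did not overlap. Over all DHS the medians went slightly the other way, from 3.90 to 4.03 in Ikaros and from 4.03 to 4.11 in control libraries. The fitted Ikaros minus control difference was positive in 6811 members (87.4%) with a median of 0.42 on the log2 scale, against a median of -0.06 over all DHS. Past the threshold (limma adjusted p under 0.05 over all DHS) were 2574 members higher and 32 lower in Ikaros cells, 33.0% and 0.411% of the members, where the background over all DHS was 7.81% higher and 5.04% lower. Broad both-strand DHS gave 356 higher and 1 lower of 993, and narrow promoter DHS 321 higher and 48 lower of 2611. With smooth trends of level, GC content and width taken out of each library, 198 members were higher and 131 lower and the median was 0.05. Fitted on the 0 h libraries alone 0 members passed. The main fit shares its estimate of spread among all groups. The mean replicate SD of members was unequal, from 0.141 (Ikaros 2 h) to 0.305 (Control 2 h). At 0 h it was 0.303 in control and 0.229 in Ikaros cells. With a variance per group 761 members were higher and 2 lower at 0 h, beside 1117 and 361 over all DHS. Without Control 0h replicate 6 the count in the main fit was 1017 in place of 2606. Without any other single 0 h library it lay between 1841 and 3082.

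**Figure D2:**
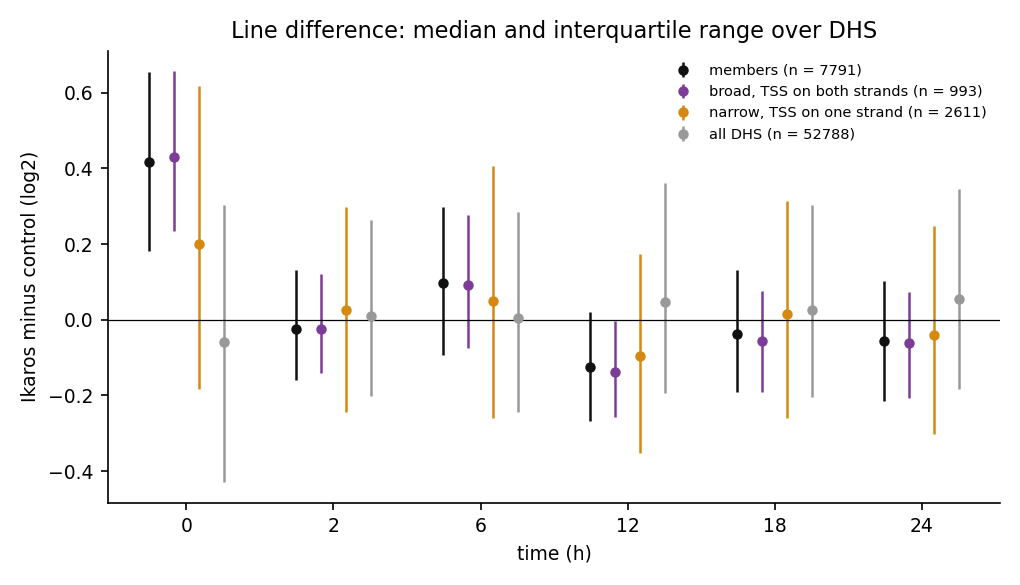
Ikaros minus control difference in log2 units against time in hours for the member DHS, broad DHS with protein-coding TSS on both strands, narrow one-strand promoter DHS and all DHS. Points are medians over DHS and bars span the interquartile range; the broad classes sit at 0.42 and 0.43 at 0 h and between -0.14 and 0.10 from 2 h to 24 h.

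The 5 largest positive differences at 0 h were at Snx25 (a sorting nexin), Rdx (radixin, which links actin to the membrane), Nab1 (a corepressor of Egr proteins), Nr2f6 (an orphan nuclear receptor) and Zfx (an X-linked zinc-finger factor). Snx25 had 5.59, 5.44 and 4.67 in the Ikaros replicates and 3.13, 3.62 and 2.98 in control, a difference of 1.99 (SE 0.26, limma adjusted p = 9.39e-05). The rule for naming members took only those whose libraries did not overlap between the lines. Zfx had 5.65, 4.69 and 5.30 against 3.59, 3.65 and 3.08, a difference of 1.77 (SE 0.21, limma adjusted p = 4.92e-05), and Nr2f6 had 5.25, 4.82 and 4.05 against 2.93, 2.92 and 2.90. Rdx rested in part on 1 control library, with 2.28, 3.03 and 0.26 against 3.85, 4.05 and 3.53 in Ikaros cells.

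Members lower in Ikaros cells at 0 h were few and of another make. The 32 had a median CpG ratio of 0.321 and the TSS inside the DHS in 31.3%, against 0.895 and 91.0% in the 2574 that were higher. Leading them were Alox12e, a lipoxygenase gene (2.47, 3.21 and 3.24 in Ikaros, 3.98, 3.90 and 4.67 in control; difference -1.21, SE 0.27, limma adjusted p = 0.00394), Gm42416 in the protocadherin alpha cluster (-1.13), Duoxa1 (-1.06), 1700069L16Rik (-0.94) and the linker histone gene Hist1h1b (-0.92). Lars, the leucyl-tRNA synthetase gene, was the one member of the 22 gene lists below that was lower at 0 h, with 5.32, 5.17 and 5.77 against 6.47, 5.98 and 6.08 (difference -0.75, SE 0.21, limma adjusted p = 0.0174).

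The 0 h difference followed base composition. Members higher in Ikaros cells made up 7.25% of the quintile with the lowest CpG ratio (median difference 0.11) and 25.1%, 33.5%, 45.1% and 54.3% of the following quintiles, with a median of 0.61 in the last. By GC content of the central 300 bp the share went from 5.45% in the lowest quintile to 70.1% in the highest. Across the 7791 members, which share libraries and base composition, the CpG ratio and the 0 h difference had a Pearson correlation of 0.487, given as a description. Members with GGGCGG were higher in 41.8% and those without it in 15.3%, while for TGGGAA the order was opposite, with 24.7% of those that had it and 35.3% of those that did not. Whether the motifs or the composition that goes with them carried these shares was not tested.

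**Figure D3:**
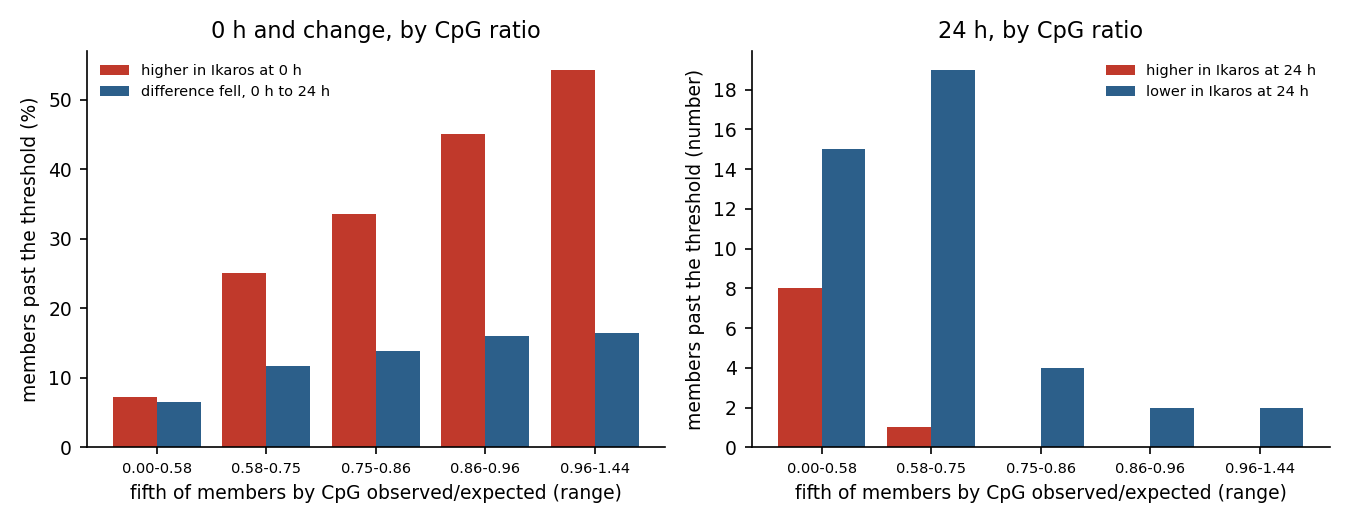
Member DHS in quintiles by the observed over expected CpG ratio of the central 300 bp. Left, the percentage higher in Ikaros cells at 0 h (red) and the percentage whose line difference fell from 0 h to 24 h (blue); right, the number higher (red) and lower (blue) in Ikaros cells at 24 h. The 0 h share rises from 7.25% to 54.3% with the CpG ratio. At 24 h, 8 of the 9 higher members are in the lowest quintile. Of the 42 lower members, 15 are in that quintile and 19 in the next.

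From 2 h on few members differed between the lines. At 2 h, 0 were higher and 3 lower in Ikaros cells (background 0.17% higher and 0.0246% lower over all DHS). At 6 h 48 were higher and 4 lower (0.422% and 0.155%), at 12 h 5 higher and 46 lower (0.887% and 0.428%), at 18 h 9 higher and 10 lower (0.5% and 0.199%), and at 24 h 9 higher and 42 lower (0.809% and 0.517%). The median difference of the members was -0.02, 0.10, -0.12, -0.04 and -0.06 in the same order, and the number at an unadjusted p under 0.05 was 478, 1305, 945, 740 and 811 of 7791. Per sample, the member medians at 24 h were 4.73, 4.70 and 4.67 in the Ikaros replicates and 4.81, 4.70 and 4.75 in control, and these overlapped.

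The counts moved when a single library was left out, and no single library accounted for this. At 24 h 16, 23 and 9 members passed without Control 24h replicate 4, 5 and 6, and 13, 10 and 12 without Ikaros 24h replicate 4, 5 and 6. At 12 h the counts were 126, 14 and 19 without Control 12h replicate 4, 5 and 6, and 5, 15 and 1 without the same Ikaros 12h replicates. At 6 h they were 58, 19 and 34 without Control 6h replicate 4, 5 and 6, and 20, 3 and 1 without Ikaros 6h replicate 4, 5 and 6. At 18 h they were 11, 8 and 9 without Control 18h replicate 4, 5 and 6 and 2, 5 and 8 without those of Ikaros 18h. At 2 h they were 4, 12 and 7 without Control 2h replicate 4, 5 and 6 and 0 without any Ikaros 2h replicate. The balance of directions moved as well: after trends with level, GC content and width were removed, 37 members were higher and 23 lower at 24 h, 19 higher and 5 lower at 18 h, 14 higher and 3 lower at 12 h, 28 higher and 20 lower at 6 h, and 3 higher and 1 lower at 2 h. After quantile normalization 12 were higher and 1 lower at 18 h, 14 higher and 26 lower at 12 h, and 1 of each at 2 h. In a fit that blocked on replicate number, 0 passed for 2 h and 33 for 12 h.

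Across 2 h to 24 h, 113 members passed at 1 time or more, 57 higher and 56 lower, and 0 changed sign between the times at which they passed. The same tally over all DHS is not given here, so it cannot be read as a trait of the members. At single times 0.655% of members passed at 12 h and at 24 h, below the 1.32% and 1.33% of all DHS. Of the 113 members, 65 passed at 1 time, 37 at 2, 8 at 3, 2 at 4 and 1 at all 5. Both 12 h and 24 h called 40 members, with the same sign in 40; group means that were reduced to 6 dimensions tie these times to each other.

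Before 24 h the members with the largest differences were in part those of 24 h. At 2 h Faap20 (-0.72, limma adjusted p = 0.0333) and Clic5, a chloride channel family gene (-0.73, limma adjusted p = 0.0444), were lowest, and 0 members were higher. Fam120a, an RNA-binding protein gene, stood out at 6 h with 4.32, 4.48 and 4.73 in Ikaros and 3.00, 3.27 and 3.23 in control cells, groups that did not overlap (difference 1.34, limma adjusted p = 0.00318). Cd36 was higher at 6 h by 1.60 and at 18 h by 1.90 (limma adjusted p = 0.0339 and 0.00891). At 12 h Nme8 (1.25) and Klrd1 (1.23) led the higher and Fads2 (-1.06) and Zfp609 (-1.04) the lower members. At 18 h Klra5 was higher by 1.30, and Faap20 (-0.97) and Btn1a1, the butyrophilin gene (-0.94), were lower. Btn1a1 was also lower at 6 h (-0.82), with Fam84b (-1.03).

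Members of Zfp609, Fads2, Uhrf1, Egr1 and Eif4ebp1 had the largest negative differences at 24 h among the members that passed without overlap between the lines, as the rule for naming required. Zfp609 (chromosome 9, 65827501 to 65828001) had 3.42, 3.76 and 3.40 in Ikaros and 4.46, 4.59 and 4.54 in control cells, a difference of -1.004 (SE 0.23, limma adjusted p = 0.0249). Fads2 (chromosome 19, 10101630 to 10102146) had 4.06, 3.76 and 3.71 against 4.88, 4.52 and 4.96, a difference of -0.94 (SE 0.22, limma adjusted p = 0.0300). Uhrf1 (chromosome 17, 56303047 to 56303566) had 4.27, 4.28 and 4.34 against 5.32, 5.20 and 5.20, a difference of -0.94 (SE 0.22, limma adjusted p = 0.0282). These 3 calls were lost in 10, 8 and 10 of 17 alternatives (other scalings, fits and left-out libraries). The other Uhrf1 member (56303948 to 56304469) did not pass, with a difference of -0.30 (limma adjusted p = 0.535). Eif4ebp1, which encodes a repressor of cap-dependent translation, had 4.20, 3.92 and 3.97 against 4.83, 4.85 and 4.91 at a member centred 923 bp downstream of its TSS (difference -0.83, SE 0.21, limma adjusted p = 0.0452, lost in 10 of 17).

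At 24 h Egr1 and Faap20 were lost in fewer alternatives than those 4 members. The product of Egr1 is an immediate early zinc-finger factor, and the member (chromosome 18, 34859681 to 34860274) had 5.09, 4.91 and 4.90 in Ikaros and 5.91, 5.91 and 5.78 in control cells at 24 h. The difference was -0.90 (SE 0.15, limma adjusted p = 0.00304) and was lost in 2 of 17 alternatives, those without replicate 5 or 6 in all groups. The other Egr1 member (34860782 to 34861388) did not pass, with a difference of -0.32 (limma adjusted p = 0.504). Faap20, a partner of the Fanconi anaemia core complex, was the one member past the threshold at all 5 times in the main fit. Its differences were -0.72, -0.78, -0.63, -0.97 and -0.81 from 2 h to 24 h and -0.42 at 0 h (limma adjusted p = 0.0636). The call at 2 h was lost in 10 of 17 alternatives and that at 18 h in 2 of 17. At 24 h Faap20 had 5.49, 5.75 and 5.24 against 6.33, 6.18 and 6.41, a call also lost in 2 of 17. Zmpste24, the prelamin protease gene, passed at 4 times, with 4.67, 4.58 and 4.34 against 5.19, 5.41 and 5.39 at 24 h (difference -0.80, limma adjusted p = 0.00436).

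The largest positive differences at 24 h, under the same rule, were at Cd36, Satb1, Klrd1, Klra5 and Slc30a5. Cd36 (chromosome 5, 17835546 to 17836049) had 3.91, 3.38 and 2.82 in Ikaros and 1.54, 2.06 and 1.58 in control cells, a difference of 1.65 (SE 0.36, limma adjusted p = 0.0205, lost in 10 of 16 alternatives). Satb1, an organiser of chromatin in lymphocytes, had 4.62, 4.25 and 4.00 against 2.67, 2.93 and 3.38, a difference of 1.30 (SE 0.24, limma adjusted p = 0.00653, lost in 6 of 17). Klrd1 had 4.01, 4.00 and 3.72 against 2.78, 2.68 and 2.45 (difference 1.27, SE 0.23, limma adjusted p = 0.00436, lost in 4 of 17), and Klra5 had 3.40, 3.75 and 3.63 against 2.12, 2.55 and 2.49 (difference 1.21, SE 0.30, limma adjusted p = 0.0409, lost in 13 of 16). At 0 h Satb1 and Klra5 were already higher in Ikaros cells, by 0.73 (limma adjusted p = 0.0449) and 1.02 (limma adjusted p = 0.0257). A positive difference at 0 h was found in 8 of the 9 members higher at 24 h. It was also found in 34 of the 42 lower at 24 h and in 87.4% of all members.

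**Figure D4:**
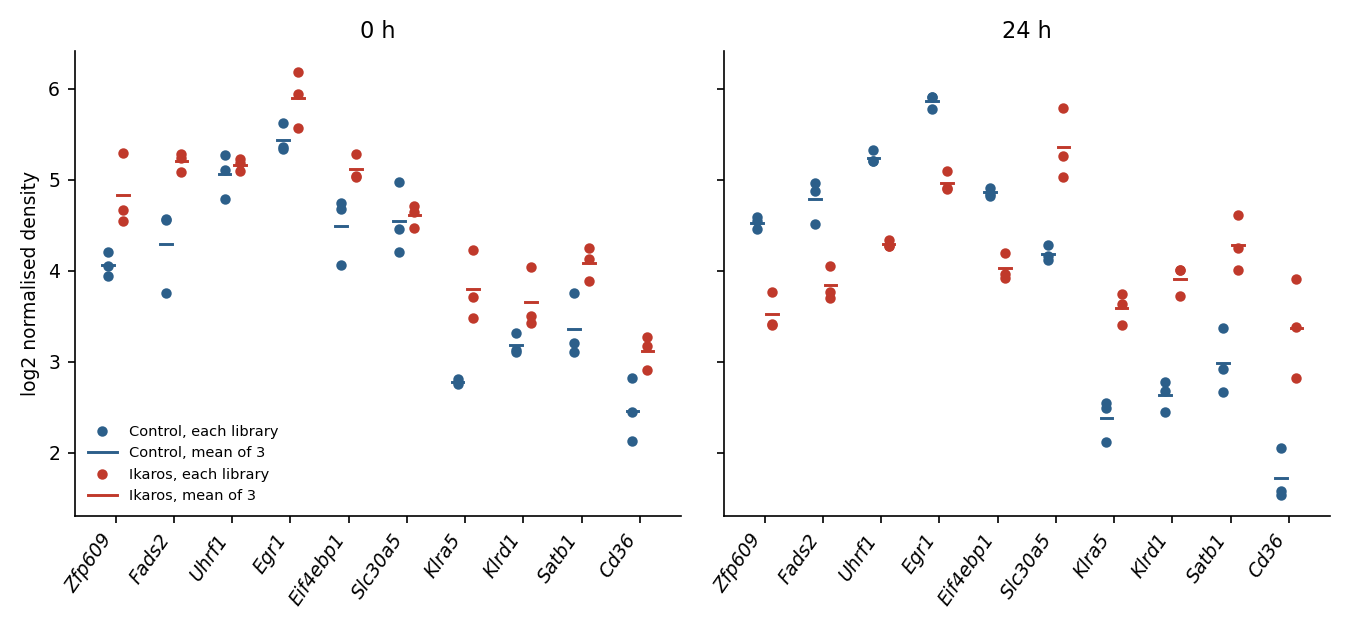
Log2 normalised density of the 5 members most lowered and the 5 most raised in Ikaros cells at 24 h, at 0 h (left) and at 24 h (right). Dots are single libraries of the control (blue) and Ikaros (red) lines and bars are means of 3; members were chosen to have no overlap between the lines at 24 h, and values run from 3.40 to 3.76 against 4.46 to 4.59 at Zfp609 and from 2.82 to 3.91 against 1.54 to 2.06 at Cd36.

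The members higher and lower at 24 h differed in make, as a description. The 42 lower ones had a median level of 5.07 and a median CpG ratio of 0.606, and the 9 higher ones a median level of 3.85 and a CpG ratio of 0.264. Both CpG ratios lay below the median of 0.804 over all members. A ratio under 0.4 was found in 7 of the 9 higher and 4 of the 42 lower ones, against 10.4% of all members. Slc30a5, a zinc transporter gene, was the clearest of the higher ones away from the TSS. Its member (chromosome 13, 100832098 to 100832598) is centred 992 bp downstream of the TSS and had 5.79, 5.26 and 5.04 against 4.16, 4.12 and 4.29 (difference 1.17, SE 0.20, limma adjusted p = 0.00287, lost in 3 of 17). It passed at 4 of the 5 times and was at 0.06 at 0 h. Over all members, 0.501% of those centred within 200 bp of the TSS passed at 24 h and 1.29% of those centred more than 500 bp away. The latter share is near the 1.33% of all DHS that passed at 24 h.

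Members that share a gene lie side by side at most of the genes below and at distant TSS at others (Pou2f1, Rai1, Eef2k). Of 453 genes with more than 1 member, 14 had a member past the threshold at 24 h, and at 0 of the 14 did every member pass, beside 0.655% of all members past it. The called member was farther from its TSS in 10 of the 14 and poorer in CpG in 11, and both members had the same sign in 9. Eif4ebp1 and Slc30a5 are among those of opposite sign. At Eif4ebp1 the member over the TSS had 4.64, 4.56 and 4.65 in Ikaros and 4.32, 4.13 and 4.54 in control cells (difference 0.29, SE 0.22, limma adjusted p = 0.600), beside -0.83 in the member downstream. At Slc30a5 the DHS over the TSS had 6.23, 6.38 and 6.09 against 6.43, 6.25 and 6.35 (difference -0.11), beside 1.17 downstream. Pou2f1, which encodes Oct-1, had a CpG-poor member at an inner TSS (CpG ratio 0.264; 5.48, 5.05 and 4.97 against 3.71, 4.37 and 4.56; difference 0.96, limma adjusted p = 0.0470) and a CpG-rich member of 1121 bp at another (5.49, 5.66 and 5.30 against 5.33, 5.11 and 5.48; difference 0.17). These pairs were picked after their values were seen and because 1 of the DHS passed, so the gap between them is described and not tested.

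**Figure D5:**
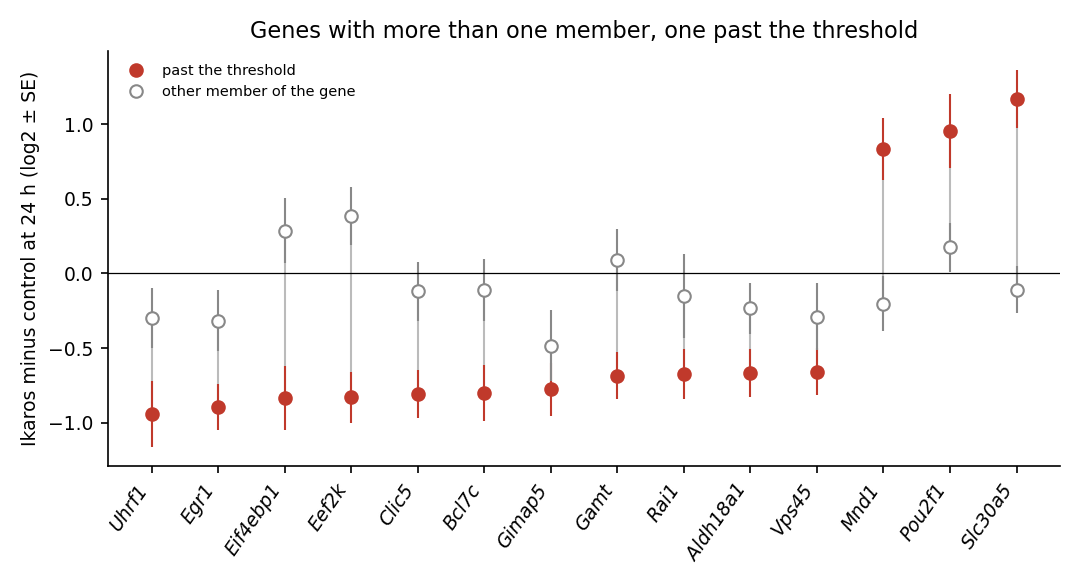
Ikaros minus control difference at 24 h in log2 units (bars, SE) at the 14 genes with more than 1 member DHS and a member past the threshold. Filled red points passed and open grey points are the gene's other member; the red points lie between -0.94 and -0.66 or between 0.83 and 1.17, the grey ones between -0.48 and 0.38.

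To measure what changed between the lines after the drug, the line difference at 24 h was compared with that at 0 h. It fell in 1005 members and rose in 13, 12.9% and 0.167% of the members, against a background of 3.4% falls and 2.85% rises over all DHS, and the median change was -0.50 in members and 0.12 over all DHS. Of the 1005 that fell, 849 were past the threshold as higher at 0 h and 35 as lower at 24 h. The median difference of these 1005 was 0.76 at 0 h and -0.22 at 24 h. With 2 h in place of 0 h, 0 members passed and the median change was -0.05. After trends with level, GC content and width were removed, 13 members rose and 6 fell. Without 1 library of 0 h the 1018 calls became 810, 1814 and 264 (Control 0h replicate 4, 5 and 6) or 640, 900 and 824 (Ikaros 0h replicate 4, 5 and 6). Without 1 library of 24 h they became 368, 892 and 519 (Control 24h replicate 4, 5 and 6) or 529, 409 and 406 (Ikaros 24h replicate 4, 5 and 6).

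The 4 largest falls were at Snx25 (-1.92), Kmt2a (-1.86), Fads2 (-1.85) and Rbpj (-1.78). Kmt2a, a histone methyltransferase gene, had 5.99, 5.69 and 5.77 in Ikaros and 4.15, 4.53 and 4.30 in control cells at 0 h, and 4.64, 4.34 and 4.20 against 4.92, 4.46 and 4.93 at 24 h (SE 0.31, limma adjusted p = 0.00491, lost in 1 of 22 alternatives). Rbpj, the DNA-binding partner of Notch, had 5.48, 5.27 and 5.28 against 4.55, 4.08 and 3.99 at 0 h and 4.23, 4.25 and 4.19 against 4.88, 4.56 and 5.16 at 24 h (SE 0.32, limma adjusted p = 0.00592, lost in 2 of 22). In both, the Ikaros mean was lower and the control mean higher at 24 h than at 0 h. The 4 largest rises were at Nme8 (1.89), Gm42416 (1.74), Rxfp3 (1.47) and Pcdha6 (1.42), with mean levels of 3.13 to 3.61. In the same order they were lost in 5 of 22, 12 of 21, 11 of 22 and 16 of 22 alternatives. Nme8 went from 2.97, 2.47 and 3.29 to 4.32, 4.47 and 3.94 in Ikaros cells and from 4.19, 3.19 and 3.86 to 2.58, 3.56 and 3.42 in control cells (SE 0.40, limma adjusted p = 0.0114). These 13 risers had a median CpG ratio of 0.320.

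Within a line, 24 h was compared with 2 h. By limma 0 members passed in the Ikaros line (background 0% over all DHS; 7 members at an unadjusted p under 0.05) and 0 in the control line (0.00947%; 175 members at an unadjusted p under 0.05). The median member change was -0.09 and -0.04, with a positive change in 16.1% and 39.1% of members. In both lines fewer members were at an unadjusted p under 0.05 by limma than chance alone would give. The absence of calls therefore cannot show that levels stayed unchanged.

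Gene lists show which functions these promoters serve; a list is described by its counts beside 33.0% of members higher at 0 h, 0.539% lower at 24 h and 12.9% with a fallen difference. Housekeeping machinery was well covered: 63 of 85 ribosomal protein genes had a member (median level 5.26), and of their 63 members 21 were higher at 0 h, 0 passed at 24 h and 7 fell. Mitochondrial ribosome genes had 46 members (12 higher at 0 h, 4 fell), oxidative phosphorylation 46 (11 and 5), proteasome 29 (9 and 4), splicing 51 (22 and 11), tRNA synthetases 25 (7 and 2) and DNA replication 32 (8 and 4), with 0 past the threshold at 24 h in each. Translation factors had 51 members, with 21 higher at 0 h, 10 that fell and 2 lower at 24 h. These 2 were Eif4ebp1 and Eef2k, the kinase that slows elongation, which had 4.42, 4.21 and 4.32 in Ikaros and 4.98, 5.05 and 5.41 in control cells at 24 h (difference -0.83, SE 0.17, limma adjusted p = 0.0148). Both encode brakes on translation and not parts of the machinery.

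Genes of chromatin complexes are given next, with 0 h counts to be read beside the same 33.0% of all members. Polycomb genes had 13 of 20 members higher and a median difference of 0.76, NuRD genes 6 of 10 and 0.81, and SWI/SNF genes 7 of 18 and 0.56. Pcgf5 had 5.92, 5.54 and 5.24 in Ikaros and 3.99, 4.80 and 3.23 in control cells (difference 1.56, SE 0.27, limma adjusted p = 0.000751). Chd4, the remodelling ATPase of NuRD and a partner of Ikaros, had 4.64, 4.39 and 4.64 against 3.34, 3.40 and 3.50 (difference 1.15, SE 0.27, limma adjusted p = 0.00628) and Hdac1, its deacetylase, 5.58, 5.47 and 5.55 against 4.40, 4.50 and 4.60 (difference 1.04, limma adjusted p = 0.000509). The Chd4 call was lost after trends with level, GC content and width were removed. At 24 h the differences of Chd4 and Hdac1 were 0.38 and -0.36 and neither passed. At 24 h 0 Polycomb or NuRD members passed, and 2 SWI/SNF members were lower: Smarcd2 (4.45, 4.39 and 3.89 against 4.96, 5.02 and 5.08; difference -0.77, limma adjusted p = 0.0208) and the downstream member of Bcl7c (-0.80).

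Among genes of growth and of the cell cycle, the Myc member (chromosome 15, 61985170 to 61985735) had 5.26, 5.04 and 5.41 in Ikaros and 4.85, 4.91 and 4.69 in control cells at 0 h and 4.33, 4.46 and 4.50 against 5.16, 4.83 and 5.10 at 24 h, a difference of -0.60 at 24 h (limma adjusted p = 0.0321) and a change of -1.02 (SE 0.20, limma adjusted p = 0.00846, lost in 4 of 22 alternatives). In the Myc network 12 of 12 members had a negative difference at 24 h, of which Myc passed. Over all members 40.6% had a positive difference at 24 h and the median was -0.06. Glycolysis genes had 20 members, with 17 negative at 24 h (median -0.38), 0 past the threshold there and 8 whose difference fell. Among these 8 were Eno1 (-1.04, limma adjusted p = 0.0114), Slc2a1, the glucose transporter (-1.06, limma adjusted p = 0.0210) and Aldoa (-1.13, limma adjusted p = 0.0311). In this order the calls were lost in 4, 7 and 11 of 22 alternatives. Removing trends with level, GC content and width was among those for each of them. Cell cycle genes had 25 members, 11 higher at 0 h and 8 that fell, led by Ccne1 (1.48 at 0 h, 0.09 at 24 h) and Cdk4 (0.97 and -0.16). Growth and quiescence signalling had 28 members, with 13 higher at 0 h and 5 that fell. Slc3a2, part of an amino acid transporter, was among those that fell (-1.20, lost in 4 of 22 alternatives).

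Interleukin 7 pathway genes had 12 members, 3 higher at 0 h, 3 that fell and 1 lower at 24 h. The last was Cish, an inhibitor of cytokine receptors, with 4.08, 4.18 and 3.94 against 4.70, 4.80 and 4.90 (difference -0.74, SE 0.15, limma adjusted p = 0.0149, lost in 7 of 17). Socs2, of the same family, fell by 1.63 from 0 h to 24 h (limma adjusted p = 0.00810). Pre-B receptor signalling had 2 of 26 members higher at 0 h, and recombination and end joining had 0 of 7 past the threshold in the 0 h, 24 h and change comparisons; Polm had -0.68 and Xrcc6 0.74 at 24 h (limma adjusted p = 0.0732 and 0.0769). B lineage transcription factors had 11 of 28 higher at 0 h, among them Tcf12 (1.26) and Myb (1.05), and at 24 h 1 higher and 1 lower, Pou2f1 and Aff3. Of 11 Bcl2 family members 5 were higher at 0 h, among them both DHS of Bbc3, the gene of the proapoptotic protein Puma (1.18 and 0.91). Adhesion and migration had 6 of 18 higher at 0 h, led by Rac1 (1.49). Immediate early genes had 13 of 24 higher at 0 h, 10 that fell and 1, the Egr1 member named above, lower at 24 h.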

How the data were processed

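DNase-seq was measured in 36 libraries of B3 cells. Per the study's methods the authors aligned reads to mm10 with Bowtie2, used HOMER for narrow and broad peaks of single replicates, built a consensus DHS list from these, counted reads per DHS with bedtools and filtered low ones. The deposited values are log2 values after RPKM and TMM scaling and ARSyN noise removal by the authors. Counts were not used here. Depth per library therefore cannot be given beyond the minimum the methods state, nor an interval for counting error. The correction can lower replicate spread and tie groups to each other, and 23 of 24 residual dimensions remained.

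TSS and strands came from GENCODE vM21 basic; 25.9% of DHS lay within 1000 bp of any TSS and 7.76% after a shift of 10000 bp, and 0 DHS ran past a chromosome end. Sequence came from the RefSeq GRCm38 genome for all 7791 members. Coordinates are as deposited, with 1 bp uncertain at the start. The 12 group means were fitted to all 36 libraries with limma 3.58.1 in R 4.3.3 (eBayes with a trend), two-sided, with Benjamini-Hochberg adjustment over all 52788 DHS and a threshold of 0.05. The fit was tested on simulated data with independent normal noise and, for each DHS, the same spread in every group. The simulation held neither the ties between group means nor the unequal spread of the groups. The error rate in the deposited values was therefore not tested. Nothing was filtered, and the mean of replicates is given with its model SE. Levels of classes of DHS were compared without a test.

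The members and the 22 gene lists were chosen with earlier results of these data known, and so were the tests. Named members follow a rule: the 5 largest differences in each direction at 0 h and 24 h and the 2 largest at other times among members past the threshold whose groups do not overlap, the 4 largest changes each way, the 5 highest, 3 lowest and 3 widest, up to 4 per gene list, and those past the threshold at 4 or more times. The second member of a gene and the members of the width rule were named beside it. The labels assign replicates 4, 5 and 6 to batches 11, 12 and 13, which pairs the numbers; deviations of same-numbered Ikaros and control libraries of a time correlated above 0.1 in 3 of 18 pairs (-0.175 to 0.183). Alternatives were quantile normalization, removal of splines of level, GC content and width, fits on the compared groups alone, a variance per group, a replicate block, a pseudocount of 1, leaving out the DHS with the lowest levels, stricter member rules and leaving out replicates. A fit without the 0 h libraries and a change counted from 2 h were added after the data were seen.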

Additional observations from a re-analysis of the deposited data

Results flagged for a closer look

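The line difference of 1018 members differed between 0 h and 24 h by the interaction contrast of limma (adjusted p under 0.05), which is why they are listed here; 1005 fell and 13 rose. The largest falls were -1.92 at Snx25, -1.86 at Kmt2a, -1.85 at Fads2 and -1.78 at Rbpj, and the largest rises 1.89 at Nme8, 1.74 at Gm42416, 1.47 at Rxfp3 and 1.42 at Pcdha6. In these orders the falls were lost in 4, 1, 3 and 2 of 22 alternatives. The rises were lost in 5 of 22, 12 of 21, 11 of 22 and 16 of 22. Per the methods the 0 h cells were obtained separately, while the labels give them the same batch numbers as the 24 h cells; whether this bears on the contrast was not tested. Groups of 3 libraries were not tested for outlying samples.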

How the results depend on the processing

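Counts of members past the threshold depended on the fit. Paired by batch, with the replicate number as a block, there were 0 (2 h) and 33 (12 h), and this block moved no other count by more than 1.5 times. Quantile normalization gave 1690 (0 h), 79 (6 h), 93 (24 h) and, for the change between 0 h and 24 h, 405. Removing trends of level, GC content and width gave 329 (0 h), 17 (12 h) and 19 (change), and medians of 0.0478 (0 h), 0.0715 (24 h) and 0.0185 (change). Fits on the compared groups alone, which have fewer libraries, gave 0 for each of the times up to 12 h, 1 (18 h), 25 (24 h) and 8 (change). A variance per group gave 763 (0 h), 0 (2 h), 86 (6 h), 81 (12 h), 110 (18 h), 288 (24 h) and 506 (change). The fit without the 0 h libraries, added after the data were seen, gave 105 (6 h), 93 (12 h), 36 (18 h) and 80 (24 h), and the change counted from 2 h, also added then, gave 0 members and a median of -0.0468. Leaving out a replicate number or a single library gave 448 to 3082 (0 h), 0 to 12 (2 h), 0 to 58 (6 h), 0 to 126 (12 h), 0 to 11 (18 h), 0 to 23 (24 h), 6 to 1814 (change), and 0 to 1 when the control line was compared between 24 h and 2 h. The cause of these shifts was not tested. A pseudocount of 1 and leaving out the DHS with the lowest levels kept these counts within 1.5 times.

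Of 123 named differences past the threshold, 0 held it in every alternative. Removing the trends turned the sign of 3 differences of 0 h: Bcl2 (-0.0329), Mxd3 (-0.0256) and Socs1 (-0.298). What depth limits was not assessed, since the deposited values do not hold the depth of each library.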

Other observations

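The 261 members on the X chromosome had a median level of 3.93 against 4.78 on the autosomes, and 19.5% of them were higher in Ikaros cells at 0 h against 33.5%. Members with 1 TSS and with more than 1 had medians of 4.71 and 4.81, with 30.9% and 35.4% higher at 0 h.

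Where the DHS centre lay from 200 to 500 bp upstream of the TSS, 42.9% of 564 members were higher at 0 h, and where it lay over 500 bp upstream 14.8% of 411. ACTACAA and CCAAT went with smaller shares: 16.2% of the 359 members with ACTACAA and 27.7% of the 3021 with CCAAT were higher at 0 h, against 33.9% and 36.4% of those without. Members with ACTACAA had a median level of 5.11, the highest median among the 11 motifs.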
